A study of Homo sapiens with 6 samples.

Results

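The genes of cytosolic nucleic acid sensing, from the DNA sensor IFI16 to the mitochondrial adaptor MAVS, were compared between 3 libraries of HEK293 WT cells and 3 libraries of HEK293 cells labelled MUL1 KO, written here MUL1(-/-). The 10 genes were chosen by name, as sensors, adaptors, kinase, transcription factor and nuclease of the pathway, out of 56588 genes or joined gene identifiers in the count tables. IFI16 RNA was 163.9-fold higher in MUL1(-/-) libraries, from a mean of 0.234 to 38.5 CPM (counts scaled to a library of 1e6). STING1 and IRF3 were 1.30-fold and 1.27-fold higher, where IRF3 rose less than the median of its neighbouring genes. MAVS was 1.14-fold higher, a call lost when any of the 6 libraries was left out. An identifier that joins TREX1 with ATRIP was also called higher. CGAS, RIGI, IFIH1, DHX58 and TBK1 did not pass the test in either direction. None of the 10 genes was called lower.

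Cells recognise DNA and RNA in the cytosol as signs of infection or damage. On the DNA side, cGAS makes the cyclic dinucleotide cGAMP, which binds STING on the endoplasmic reticulum, and IFI16 binds DNA in the nucleus and cytosol and can act with STING. On the RNA side, RIG-I and MDA5 (encoded by IFIH1) bind viral RNA and assemble MAVS filaments on the outer mitochondrial membrane. Both routes activate the kinase TBK1, which phosphorylates IRF3, the transcription factor that turns on type I interferon. MUL1 is an E3 ligase of the outer mitochondrial membrane with roles in this response, in mitophagy and in metabolism, and the study asked how its loss changes the cell, at the level of gene expression among others.

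HEK293 is an established human embryonic kidney line, and both genotypes were cultured in DMEM with fetal calf serum, with no treatment or infection. The MUL1 gene had been inactivated with CRISPR-Cas9 in earlier work, and the sources do not state which clone gave these libraries or whether the 3 libraries of a genotype came from separate cultures, so p-values measure the spread between these libraries, which may be technical. A clone and its genotype cannot be told apart in this design. MUL1 RNA itself was at 15.0, 14.8 and 18.5 CPM in WT and at 18.2, 16.2 and 18.7 CPM in MUL1(-/-) libraries, a log2 fold change of 0.14 with a 95% interval of -0.08 to 0.35 (adjusted p = 0.318). The RNA level therefore does not check the genotype labels. Of 7 markers of HEK293 cells, 6 exceeded 1 CPM in at least 1 library, and PAX8 did not.

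The tables hold counts of reads per exon bin, and a gene's value is the sum over its bins, so that a read touching several bins was counted in each. Library totals were 130494070 to 146723465 in WT and 125277550 to 125915925 in MUL1(-/-), ranges that do not overlap. A single count was worth 0.00688 to 0.00786 CPM, and 3 counts, taken as the floor for calling a gene present, were 0.0206 to 0.0236 CPM. Fold changes, standard errors (SE) and p-values come from edgeR's quasi-likelihood test over 24757 genes, with Benjamini-Hochberg adjustment over all of them. A gene was called higher or lower at an adjusted p under 0.05. Over all genes 18.6% were called higher and 18.6% lower, 37.3% in all. Of the 10 sensing genes, 5 were called higher and 0 lower, and the 5 include an identifier that joins TREX1 with a neighbouring gene. At an unadjusted p under 0.05 the count of lower genes was also 0, and it was 0 with DESeq2 and with limma-voom. The median log2 fold change was 0.24 over the 10 genes and -0.01 over all genes tested. Genotypes did not overlap for the same 5 genes, where over all genes 24.1% were higher and 24.4% lower without overlap, 48.4% in all.

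**Figure D1:**
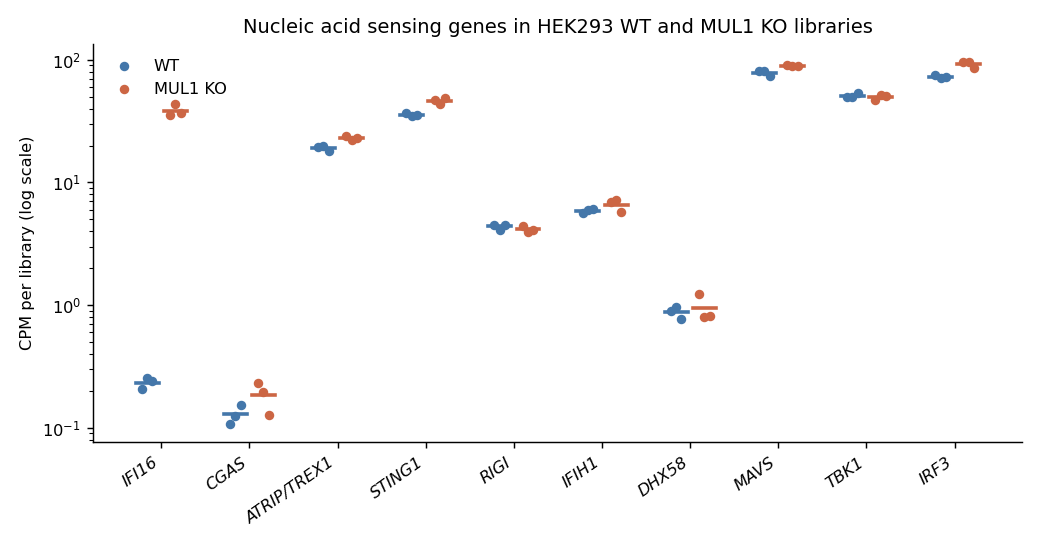
CPM per library (log axis) of the 10 sensing genes, with 1 point per library, 3 WT and 3 MUL1(-/-) libraries per gene, and lines at the means. IFI16 rises from 0.207 to 0.255 CPM in WT to 35.4 to 43.3 CPM in MUL1(-/-), and the other genes stay near their WT level.

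IFI16 (ENSG00000163565, chromosome 1, 158999968 to 159055155, plus strand, GRCh38) belongs to the interferon-inducible PYHIN family, with a pyrin domain and HIN domains that bind DNA. Its counts were 27, 37 and 31 in WT and 4596, 5573 and 4694 in MUL1(-/-) libraries, which gives 0.207, 0.255 and 0.239 CPM against 35.4, 43.3 and 36.9 CPM. Every MUL1(-/-) library was far above every WT library, while the WT counts were low but above the 3-count floor. The WT counts are sums over 36 bins with at most 7 counts in a bin. A read can be counted in several bins, so these sums can stand for fewer reads, and the fold change rests on them. The WT mean was 0.234 ± 0.0246 CPM and the MUL1(-/-) mean 38.5 ± 4.23 CPM (SD over 3 libraries), and the log2 fold change was 7.36 (SE 0.14, 95% interval 7.06 to 7.66, adjusted p = 5.96e-14 by edgeR). In bulk RNA, more IFI16 RNA per cell and more cells that express it cannot be told apart. By p-value IFI16 ranked 2 of all genes tested. With a second threshold added, a change of more than 1 on the log2 scale, IFI16 was the 1 gene of the 10 past both, and 0 were past both and lower. Over all genes 4.16% were past both and higher and 3.88% past both and lower, 8.04% in all. Across 16 refits the log2 fold change lay between 7.28 and 7.81, and the highest adjusted p was 6.41e-11.

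The RefSeq promoter table (GRCh38.p14) holds 7 windows for 6 of the 10 genes, each from 250 bases before to 50 bases after a transcript start. The windows of IFI16, IFIH1 and RIGI are printed because they carry matches to motifs of interferon-regulated promoters. Capitals mark the matches on either strand, to the interferon-stimulated response element (ISRE), read here as a pair of GAAA with 2 bases between, in IFIH1 and to GAAANGAAA in IFI16 and RIGI.
IFI16, chr1:159009657-159009956, plus strand: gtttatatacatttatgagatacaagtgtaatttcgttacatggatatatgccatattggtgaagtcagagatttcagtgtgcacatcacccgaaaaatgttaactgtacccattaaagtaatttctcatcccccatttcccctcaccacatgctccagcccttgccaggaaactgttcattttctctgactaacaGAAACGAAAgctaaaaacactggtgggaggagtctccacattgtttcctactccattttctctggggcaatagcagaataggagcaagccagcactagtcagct
IFIH1, chr2:162318635-162318934, minus strand: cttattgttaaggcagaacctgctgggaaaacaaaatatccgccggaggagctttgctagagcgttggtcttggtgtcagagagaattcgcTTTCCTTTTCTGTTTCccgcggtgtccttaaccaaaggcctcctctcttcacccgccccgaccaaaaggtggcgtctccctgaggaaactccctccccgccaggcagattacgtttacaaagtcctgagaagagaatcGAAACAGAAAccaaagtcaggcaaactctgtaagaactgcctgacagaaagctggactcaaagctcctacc
RIGI, chr9:32526147-32526446, minus strand: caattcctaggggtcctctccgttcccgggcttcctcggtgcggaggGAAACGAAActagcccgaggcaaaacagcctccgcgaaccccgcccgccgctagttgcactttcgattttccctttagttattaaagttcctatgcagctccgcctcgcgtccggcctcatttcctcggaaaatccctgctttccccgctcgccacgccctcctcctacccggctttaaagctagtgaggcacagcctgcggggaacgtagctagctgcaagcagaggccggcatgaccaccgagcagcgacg

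Of the windows of IFI16, the printed window holds GAAACGAAA with its first base at -54 from the transcript start at 159009907, and the same 9 bases stand in the RIGI window at -203. GAAANGAAA was added to the search after the sequences were seen, and 3.12% of 35116 promoters hold it. The IFIH1 window holds 3 ISRE matches, of which the 2 upstream matches overlap each other, and 3.57% of promoters hold at least 1. No window of the 6 genes matched the gamma-activated site TTCNNNGAA, which 7.66% of promoters hold. The printed IFI16 window has 3 CpG dinucleotides, and 18.2% of promoters have fewer, against 12 in the IFIH1 window and 27 in the RIGI window. A second IFI16 window, chr1:159008741-159009040, around an upstream start at 159008991, holds no match to the 3 motifs and has 1 CpG, and 3.96% of promoters have fewer. CGAS, STING1, DHX58 and IRF3 had no window and were not searched. The part of these motifs in the RNA levels was not tested.

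Along the 36 exon bins of IFI16, WT libraries held 0 to 7 counts in a bin, and 16 bins held 0 in every WT library. In MUL1(-/-) libraries 19 bins, spread between bin 6 and bin 31, held 107 to 502 counts each, and the other 17 held 0 to 33. The 19 bins reached a mean of 20 counts only through the MUL1(-/-) libraries, so neither their number nor a ratio per bin is given as a result. Bins are not independent, since a read can be counted in several. The 3 bins farthest upstream held 2, 0 and 0 counts in WT and 10, 17 and 8 in MUL1(-/-) libraries, where they were 0.231% ± 0.0683 of the gene's counts (SD, n = 3). At the printed transcript start, the bin from 159009892 to 159009917 held 2, 5 and 4 counts in MUL1(-/-) libraries, and the bin from 159009927 to 159010002 held 107, 124 and 109. The counts in MUL1(-/-) libraries thus began near this start and not at the upstream exons.

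IFI16 transcripts differ in their spacer exons, which lie between the HIN domains and of which some are missing from the shorter isoforms. The 3 spacer exons have 168 bases each. Spacer exon 1, at 159032524 to 159032691, held 202, 234 and 196 counts in MUL1(-/-) libraries. Spacer exon 2, at 159045297 to 159045464, held 18, 17 and 20, and spacer exon 3, at 159049432 to 159049599, held 20 in each of the 3. In the GENCODE 29 transcripts, exons 2 and 3 are equal at all 168 positions, whereas exon 1 differs from both at 53 positions and shares a run of at most 14 bases with them. A read that lies within exon 2 or 3 matches both, and how such reads were counted is not given in the sources used here. The counts of exons 2 and 3, at 8.79% ± 1.47 and 9.55% ± 0.882 of that of exon 1 (SD, n = 3), therefore do not measure how often they were used. In WT exon 1 held 1, 1 and 3 counts and the others 0 in each library.

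**Figure D2:**
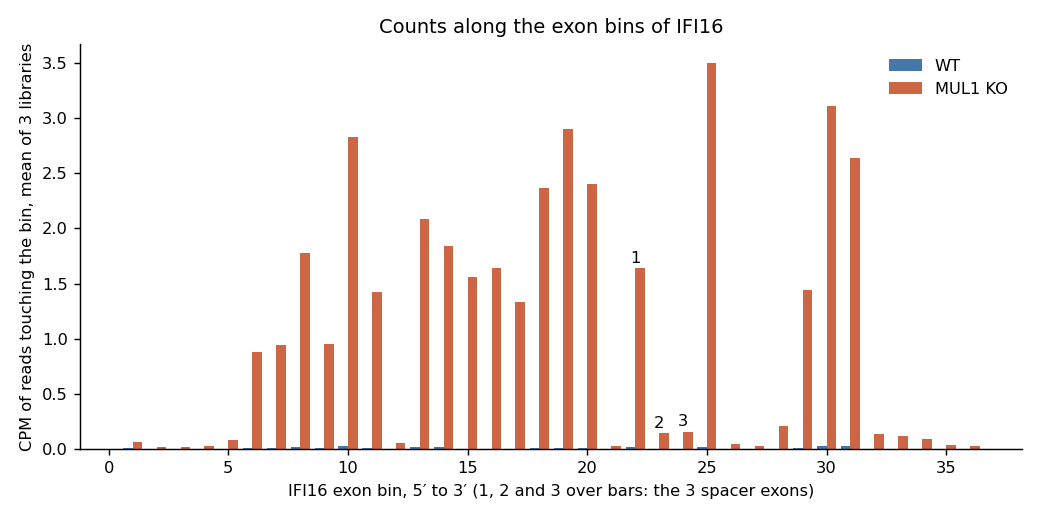
Mean CPM of reads touching each of the 36 exon bins of IFI16, in order from 5′ to 3′, for 3 WT and 3 MUL1(-/-) libraries, with the 3 spacer exons numbered. WT bars stay near 0, and the highest MUL1(-/-) bars lie between bin 6 and bin 31. The bars of spacer exons 2 and 3, which are equal in sequence, are lower than that of spacer exon 1.

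The relatives of IFI16 in the PYHIN cluster on chromosome 1 were close to absent. AIM2, the inflammasome DNA sensor, had 0, 1 and 2 counts in WT and 0, 0 and 2 in MUL1(-/-) libraries. MNDA had 0 in each WT library and 0, 3 and 0 in MUL1(-/-), and PYHIN1 had 0 in each WT library and 0, 1 and 0. All 3 were at or under the floor in every library. The 20 nearest tested genes around IFI16 had log2 fold changes from -1.39 to 0.82 with a median of 0.09. None of these 20 genes came near the change of IFI16. The closest upstream was HSP90AA3P, which ends at 158525838, and the closest downstream was SLAMF8, which starts at 159826750. Genes nearer to IFI16 were not among those tested.

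The 5 genes whose pattern over the 6 libraries was most like that of IFI16, among 15554 genes of at least 1 mean CPM, were ZNF738, SALL3, ADCY2, LSAMP and PRR16. The measure was the root mean square difference of log2 CPM after centring each gene, which was 0.284 for ZNF738 and 0.723 for PRR16. Being near 0 in WT and present in MUL1(-/-) follows from this choice and is not a separate result. All 5 reached 1 mean CPM only through MUL1(-/-) libraries, with ZNF738 going from 0.0315 to 5.49 CPM and SALL3 from 0.0174 to 7.01 CPM. They lie on chromosomes 19, 18, 5, 3 and 5, none on that of IFI16.

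Leukocytes carry IFI16 at high level, so their markers are given beside it. The 9 leukocyte markers with an identifier of their own summed to 2.46 to 2.79 CPM in WT and 4.46 to 5.18 CPM in MUL1(-/-) libraries, with CD3E and MS4A1 at or under 3 counts in every library. PTPRC, the pan-leukocyte marker, was at 0.0925 and 0.355 CPM (log2 fold change 1.94, adjusted p = 8.95e-04). CD68 shares a joined identifier and was left out. The 3 endothelial markers summed to 0.0927 to 0.241 CPM in WT and 0.448 to 0.693 CPM in MUL1(-/-), the 5 fibroblast markers to 26.2 to 36.0 and 30.0 to 41.6 CPM, and the 7 HEK293 markers to 1257 to 1469 and 897.7 to 1069 CPM. The part of these markers in the IFI16 result was not tested.

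CGAS (ENSG00000164430, chromosome 6, 73413515 to 73452276, minus strand), the cGAMP synthase, was the least abundant of the 10 genes per length. Its counts were 14, 18 and 20 in WT and 30, 25 and 16 in MUL1(-/-) libraries, 0.107, 0.124 and 0.154 CPM against 0.231, 0.194 and 0.126 CPM. The ranges overlap. The log2 fold change of 0.52 has an interval of -0.22 to 1.25 (SE 0.34, adjusted p = 0.266). This interval runs from 0.859-fold to 2.38-fold, so the change was measured only coarsely. HEK293 cells of both genotypes thus had very little RNA of the DNA sensor that feeds STING.

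STING1 (ENSG00000184584, chromosome 5, 139475534 to 139482935, minus strand) encodes the cGAMP receptor. It was at 37.1, 34.5 and 35.6 CPM in WT and 47.1, 43.7 and 48.6 CPM in MUL1(-/-) libraries, with means of 35.7 ± 1.34 and 46.5 ± 2.49 CPM (SD, n = 3). Every MUL1(-/-) library was above every WT library, by a log2 fold change of 0.38 (SE 0.07, interval 0.22 to 0.54, adjusted p = 8.57e-04). Over the refits it lay between 0.35 and 0.45, with adjusted p of at most 0.0108. Of 30 bins with a mean of at least 20 counts, 29 were higher, but a read can be counted in several, so bins are not independent. The 20 nearest tested genes had a median log2 fold change of -0.30, so STING1 rose where its neighbours were mostly lower.

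TREX1 (ENSG00000213689) encodes the exonuclease that degrades cytosolic DNA upstream of cGAS. All 19 of its exon bins are also covered by exons of ATRIP, the partner of the ATR kinase, and the tables list both under a joined identifier (chromosome 3, 48446710 to 48467645, plus strand). That identifier was at 19.3, 19.9 and 18.1 CPM in WT and 24.1, 22.3 and 23.1 CPM in MUL1(-/-) libraries, with a log2 fold change of 0.28 (SE 0.08, interval 0.11 to 0.45, adjusted p = 0.0123). The bins over TREX1 exons hold 15.8% of its counts. They were at 3.37, 3.06 and 2.45 CPM in WT and 4.15, 3.66 and 3.34 CPM in MUL1(-/-), ranges that overlap, with a log2 fold change of 0.33 (SE 0.14, interval 0.03 to 0.63, adjusted p = 0.082 by edgeR). The call belongs to the joined ATRIP/TREX1 identifier, and TREX1 is uncertain.

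The RNA sensors did not pass the test. RIGI (ENSG00000107201, chromosome 9, 32455705 to 32526324, minus strand), the sensor of 5′-triphosphate RNA, was at 4.53, 4.12 and 4.53 CPM in WT and 4.43, 3.94 and 4.08 CPM in MUL1(-/-), with a log2 fold change of -0.08 and an interval of -0.32 to 0.16 (adjusted p = 0.616). IFIH1 (ENSG00000115267, chromosome 2, 162267079 to 162318703, minus strand), which senses long double-stranded RNA, was at 5.60, 6.01 and 6.02 CPM in WT and 6.94, 7.15 and 5.73 CPM in MUL1(-/-), with a log2 fold change of 0.17 and an interval of -0.07 to 0.41 (adjusted p = 0.261). In both genes the genotypes overlap.

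DHX58 (ENSG00000108771, chromosome 17, 42101404 to 42112733, minus strand) encodes LGP2, which lacks the CARD domains of its relatives and tunes their signal. It was at 0.903, 0.957 and 0.772 CPM in WT and 1.23, 0.793 and 0.817 CPM in MUL1(-/-), where only the first library stood above the WT range. The log2 fold change was 0.11, with an interval of -0.31 to 0.53 (adjusted p = 0.706), and it was -0.11 without MUL1(-/-) replicate 1 (adjusted p = 0.71). Among bins of at least 20 mean counts, 7 of 17 were higher in RIGI and 14 of 17 in IFIH1. No DHX58 bin reached that mean.

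MAVS (ENSG00000088888, chromosome 20, 3846799 to 3876123, plus strand), the adaptor on the outer mitochondrial membrane where MUL1 also resides, was at 81.2, 81.3 and 73.1 CPM in WT and 90.9, 88.8 and 88.7 CPM in MUL1(-/-). The ranges do not overlap, and the means were 78.5 ± 4.67 and 89.5 ± 1.29 CPM (SD, n = 3). The log2 fold change was 0.19 (SE 0.07, interval 0.04 to 0.33, adjusted p = 0.042). The call was lost when any of the 6 libraries was left out, with adjusted p of 0.0507 to 0.128 and log2 fold changes of 0.14 to 0.21. All 7 of its bins with at least 20 mean counts were higher, by log2 ratios of 0.03 to 0.21 (mean CPM plus an offset of 0.01 CPM). Most of the gene's counts lay in 1 bin of 10428 bases, at 61.0 CPM in WT and 70.5 CPM in MUL1(-/-). That bin had the ratio of 0.21, and the others had 0.03 to 0.15. The 7 bins are not independent either.

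TBK1 (ENSG00000183735, chromosome 12, 64451880 to 64502108, plus strand), the kinase on which the DNA and RNA routes meet, was at 49.6, 50.1 and 53.6 CPM in WT and 47.0, 51.6 and 50.4 CPM in MUL1(-/-). The genotypes overlap, and the log2 fold change of -0.04 has an interval of -0.19 to 0.11 (adjusted p = 0.695). Its 20 nearest tested genes had a median of -0.25.

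IRF3 (ENSG00000126456, chromosome 19, 49659569 to 49665875, minus strand), the substrate of TBK1, was at 75.5, 71.4 and 72.1 CPM in WT and 95.4, 95.8 and 86.1 CPM in MUL1(-/-), with means of 73.0 ± 2.18 and 92.4 ± 5.52 CPM (SD, n = 3). Every MUL1(-/-) library was above every WT library, with a log2 fold change of 0.34 (SE 0.07, interval 0.19 to 0.49, adjusted p = 0.00125). All 57 bins with at least 20 mean counts were higher, but many are short and a read can be counted in several, so they are not independent. Bins that another identifier overlaps hold 20.2% of its counts, and over the other bins the log2 fold change was also 0.34 (adjusted p = 0.00191). The 20 nearest tested genes had a median of 0.58, above that of IRF3, so the rise of IRF3 was smaller than that of its region and stood at -0.24 relative to it. Gene copy number was not measured, and its part in the result was not tested.

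**Figure D3:**
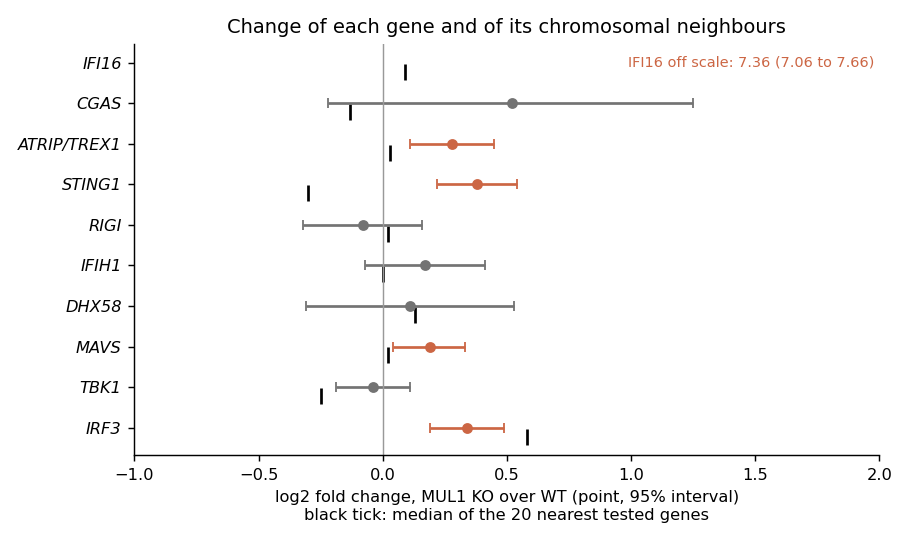
Log2 fold change, MUL1(-/-) over WT, of each sensing gene (points, bars for 95% intervals, orange where the adjusted p was under 0.05), with black ticks at the median of the 20 nearest tested genes. IFI16, at 7.36, is beyond the axis, STING1 lies above its neighbours' median of -0.30, and IRF3 lies below its neighbours' median of 0.58.

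**Figure D4:**
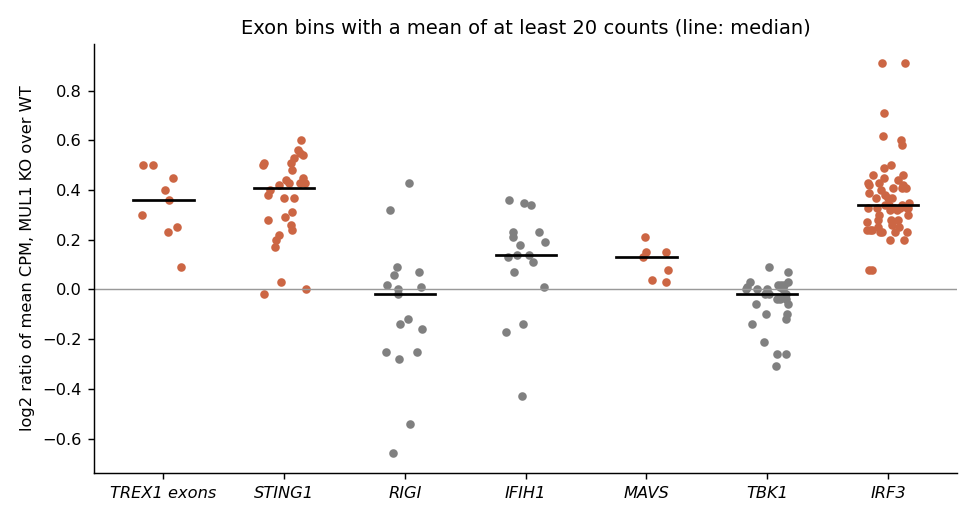
Log2 ratio of mean CPM, MUL1(-/-) over WT, of each exon bin with a mean of at least 20 counts over the 6 libraries, with lines at the medians and orange for genes called higher or, for the TREX1 exon bins, lying in the joined identifier called higher. Of the bins, 29 of 30 in STING1 and 57 of 57 in IRF3 lie above 0, against 11 of 29 in TBK1. Bins of a gene are not independent, since a read can be counted in several. An offset of 0.01 CPM was added to both means, and IFI16 is not drawn because its WT bins held too few counts for a ratio.

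Levels can be compared between genes only per length, here as CPM per kb of summed bin length. In WT the order was IRF3 at 19.2, TBK1 at 10.7, STING1 at 9.28, MAVS at 6.67 and ATRIP/TREX1 at 3.51 CPM per kb. Below these stood IFIH1 at 1.30, RIGI at 1.01, DHX58 at 0.228, IFI16 at 0.0441 and CGAS at 0.0309 CPM per kb. No neighbours in this order overlapped over the 3 libraries. In WT cells, then, the adaptors and the signalling genes were well above the sensors. In MUL1(-/-) libraries IFI16 moved from place 9 to place 5, at 7.28 CPM per kb with a range of 6.68 to 8.19, which overlaps that of MAVS, at 7.60 CPM per kb. IFI16 was above 4.88% of tested genes per length in WT and above 76.7% in MUL1(-/-). Genes cut into many short bins, such as IRF3 with 68, count a read more often than MAVS with 9, which raises their place.

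The other genes of the pathway, 192 in 6 lists, moved in both directions. Of 173 tested, 39 were higher and 40 lower (22.5% and 23.1%, against 18.6% for each direction over all genes), with a median log2 fold change of 0.01. Past both thresholds were 6 higher and 4 lower genes, 3.47% and 2.31% of those tested against 4.16% and 3.88% over all genes. Of these 10, RIPK1 came to 0.75 and NFKB2 to -0.85 without MUL1(-/-) replicate 3, and RIPK1 to 0.98 without WT replicate 1 or WT replicate 2. MARCHF5 came to -0.99 and NFKB2 to -0.95 with library totals in place of TMM factors. TRIM31 came to 0.96 at its lowest over the alternatives. In size, these values are under the second threshold. The median log2 fold change of the 20 nearest tested genes is given as the neighbours' median beside the list genes described. List genes given below as rising or falling by a log2 value alone had an adjusted p of at most 0.00976, that of XRCC6, in edgeR's test.

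Among other sensors of nucleic acids, 2 of 23 tested genes were higher and 3 lower. OAS3, which makes the oligoadenylate that activates RNase L, rose from 1.57 ± 0.0949 to 3.78 ± 0.305 CPM (log2 fold change 1.27, adjusted p = 3.01e-06, neighbours' median -0.02). POLR3A, the catalytic subunit of RNA polymerase III, which transcribes cytosolic DNA into a ligand of RIG-I, fell by 0.49 on the log2 scale, with a neighbours' median of -0.56. XRCC6, a subunit of the Ku DNA-binding complex, fell by 0.22, with a neighbours' median of -0.02.

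Regulators of STING and cGAS gave 5 higher and 8 lower of 36 tested (13.9% and 22.2%, against 18.6% for each direction over all genes). INSIG1, a protein of sterol control that also assists STING ubiquitination, fell from 124.6 ± 25.2 to 44.2 ± 17.3 CPM (log2 fold change -1.49, adjusted p = 1.09e-04, neighbours' median -0.57). SEC24C, of the coat that carries STING out of the endoplasmic reticulum, fell by 0.37 (neighbours' median -0.43). Bins that another identifier overlaps hold 39.0% of SEC24C counts. Over its other bins the log2 fold change was -0.36 (adjusted p = 0.00171 by edgeR). LRRC8A, a subunit of the channel that lets cGAMP into cells, rose by 0.69 (neighbours' median 0.07), and TRIM32, an E3 ligase for STING, by 0.40 (neighbours' median 0.13).

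Regulators of the RIG-I-like receptors and MAVS gave 11 higher and 11 lower of 42 (26.2% each, against 18.6% for each direction over all genes). MARCHF5, a mitochondrial E3 ligase that acts on MAVS aggregates, fell from 59.5 ± 1.22 to 28.6 ± 1.74 CPM (log2 fold change -1.06, adjusted p = 6.91e-08, neighbours' median -0.36). NLRC5, a regulator of MHC class I genes, rose from 8.85 ± 1.02 to 20.7 ± 1.68 CPM (1.23, adjusted p = 4.92e-07, neighbours' median 0.04). TRIM31, an E3 ligase of MAVS, was at 0.0955 ± 0.0573 and 0.249 ± 0.0919 CPM (1.37, adjusted p = 0.0251, neighbours' median -0.06), and its call was lost without WT replicate 1, MUL1(-/-) replicate 2 or MUL1(-/-) replicate 3. The mitofusin MFN2 fell by 0.47 (neighbours' median -0.42), and the E3 ligase SMURF2 rose by 0.70 (neighbours' median 0.70).

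Signalling genes downstream of the adaptors gave 12 higher and 12 lower of 38 (31.6% each, against 18.6% for each direction over all genes). IKBKE, the kinase closest to TBK1, rose from 2.61 ± 0.644 to 7.38 ± 0.726 CPM (log2 fold change 1.50, adjusted p = 3.15e-06, neighbours' median -0.07), beside the log2 fold change of -0.04 of TBK1. RIPK1 rose from 4.17 ± 0.834 to 8.69 ± 2.96 CPM (1.06, adjusted p = 5.77e-04, neighbours' median -0.11). NFKB2, the precursor of the p52 subunit of NF-kB, fell from 56.6 ± 2.12 to 27.8 ± 6.18 CPM (-1.02, adjusted p = 1.43e-05, neighbours' median -0.46), and CHUK, the kinase that triggers its processing, fell by 0.49 (neighbours' median -0.37).

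Genes of nucleic acid clearance gave 8 higher and 4 lower of 22 (36.4% and 18.2%, against 18.6% for each direction over all genes). The RNase H2 subunit RNASEH2B rose by 0.49 (neighbours' median 0.20) and the lysosomal exonuclease PLD3 by 0.40 (neighbours' median 0.35). The endonuclease APEX1 fell by 0.49 (neighbours' median -0.16) and LSM11, of histone RNA processing, by 0.57 (neighbours' median 0.10). TREX2, the relative of TREX1, was at 0.349 ± 0.0965 and 0.976 ± 0.346 CPM (log2 fold change 1.48, adjusted p = 5.11e-04, neighbours' median -0.07), but its bins come from a joined identifier that, kept whole, gave 0.03 (adjusted p = 0.746).

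Interferons and direct outputs gave 1 higher and 2 lower of 14 tested. IFNB1, the main product of IRF3 in nonimmune cells, had 0 counts in each WT library and 0, 1 and 1 in MUL1(-/-), all under the floor of 3. IFNL1 had 5, 8 and 6 counts in WT and 6, 9 and 6 in MUL1(-/-). The interferon-induced genes IFIT1 and ISG15 had log2 fold changes of -0.14 and -0.26 (adjusted p = 0.404 and 0.0699 by edgeR), and were named after their values were seen. IFIT2, also named afterwards as the 1 higher gene, was at 0.318 ± 0.0578 and 0.632 ± 0.0916 CPM (0.99, adjusted p = 0.00298, neighbours' median -0.42). TNF, an NF-kB target, fell from 0.291 ± 0.0184 to 0.0571 ± 0.00945 CPM (log2 fold change -2.33, adjusted p = 7.33e-05, neighbours' median -0.06). IFNAR2, a subunit of the interferon receptor in a joined identifier, had a log2 fold change of -0.20 (adjusted p = 0.0465, neighbours' median -0.35) whose call was lost under most alternatives. IFNB1 RNA was thus not detectable above the floor. The list gave 7.14% of its tested genes higher and 14.3% lower, against 18.6% for each direction over all genes.

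**Figure D5:**
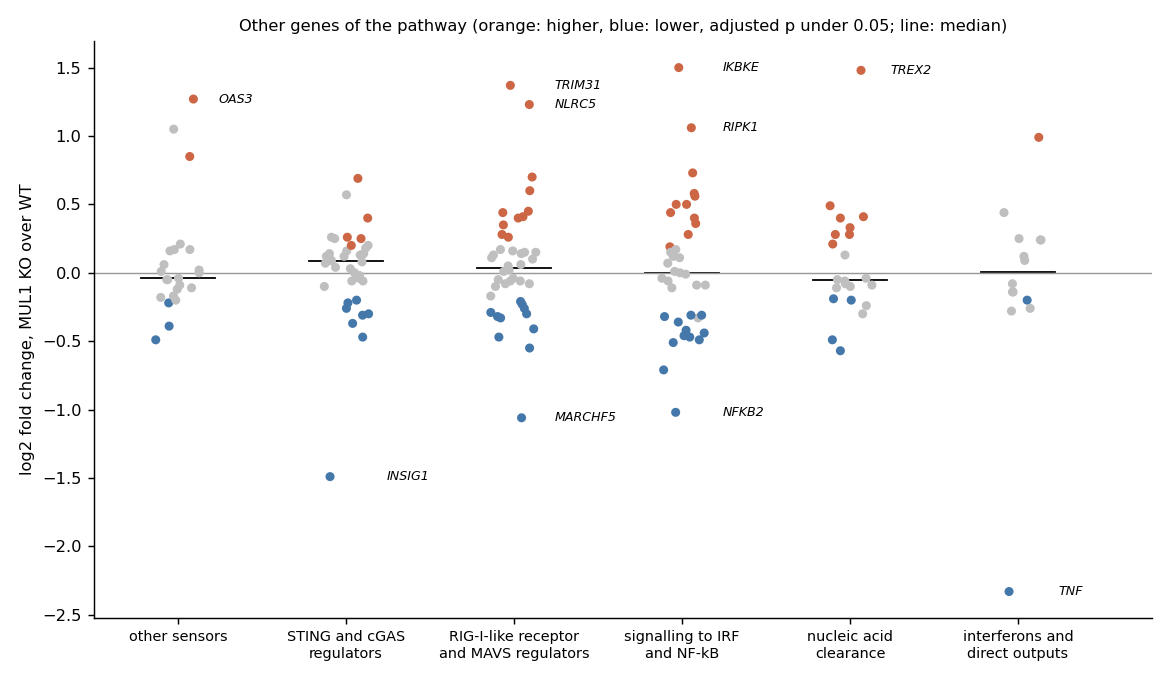
Log2 fold change, MUL1(-/-) over WT, of the tested genes of 6 pathway lists, with 1 point per gene, orange for higher and blue for lower at an adjusted p under 0.05, and lines at the list medians. Calls lie on both sides of 0 in every list, and the genes past both thresholds, such as OAS3 at 1.27 and TNF at -2.33, are named.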

How the data were processed

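RNA was sequenced in 6 HEK293 libraries, 3 WT and 3 MUL1(-/-), grouped by the genotype label. The files the authors deposited hold raw counts of reads for each exon bin, not normalized, for 597973 bins under 54848 identifiers. The submitters' processing notes name Trimmomatic 0.36, STAR 2.5.2b and the build GRCh38, and the counting program is not given in the sources used here. Bin counts were summed per gene. Of 2031 identifiers that join overlapping genes, 1278 were divided by same-strand exons of GENCODE 29, which left out 1.73% of counts, and 753, ATRIP/TREX1 among them, were kept whole. Counts behaved as unstranded at 11 pairs of opposite-strand bins, so antisense reads cannot be told apart. The sum over bins was a median of 2.97 times the most counted bin, so the sums overstate depth. The most counted bins totalled 23843847 to 28201574 per library.

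Genotypes were compared with edgeR 4.0.16 (TMM factors, filterByExpr, quasi-likelihood test, R 4.3.3), with Benjamini-Hochberg adjustment over 24757 genes and all 6 libraries in the fit. The study's methods name DESeq2 and thresholds of 0.05 on the adjusted p and 1 on the size of the log2 fold change, used here as the thresholds that a gene past both had passed. DESeq2 1.42.0, limma 3.58.1 (voom), other scalings, filters, ways of summing bins, a replicate block and leaving out each library were alternatives. CPM used TMM-scaled totals. The scripts were tested on simulated counts.

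The members, lists and tests were chosen with earlier results of these data known. The named genes were the 10 members, MUL1, list genes past both thresholds, the 2 smallest p in each direction per list among called genes of at least 1 mean CPM, IFNB1 and IFNL1, and the 5 genes most like IFI16. Some list genes are not reported here by name. PYHIN relatives, markers and other genes were named beside results.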

Additional observations from a re-analysis of the deposited data

How the results depend on the processing

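Over 16 refits, 5 of the 10 sensing genes were higher in each except the 6 that left out a library, which gave 4, while 0 were lower and 1 was past both thresholds in every refit. Pathway genes called higher numbered 32 to 42 and lower 29 to 41 when a library was left out, and 54 and 30 with library totals in place of TMM factors. That scaling moved the share of calls that were higher, over all genes, from 50.0% to 60.5%. TBK1, which was not called, changed sign under library totals (0.03), in the most counted bin (0.03) and without MUL1(-/-) replicate 1, with -0.06 to 0.01 over the fits that left out a library. RIGI gave 0.34 in its most counted bin (adjusted p = 0.137 by edgeR), DHX58 gave -0.11 to 0.23 when a library was left out, IRF3 gave -0.24 relative to its neighbours, and IFNAR2 gave 0.18 in the most counted bin (adjusted p = 0.188). Relative to their neighbours STING1 stood at 0.68, TBK1 at 0.21 and DHX58 at -0.02. The TREX1 exon bins, an alternative chosen after seeing the data, lost the call (adjusted p = 0.082). The causes were not tested.

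With the replicate number as a block, 5 members were higher, 0 lower and 1 past both, the pathway lists had 39 higher and 38 lower genes, and no call of a sensing gene changed. Deviations of libraries with the same number correlated at -0.0938 to 0.164 over 15555 genes, with a mean of 0.0564 against -0.0250 for different numbers. Of the 6 libraries, 4 correlated best with their own number. Replicate 3 stood farthest from the others in both genotypes, by the chi-square per degree of freedom between 2 libraries. In WT it was 11.1 and 9.51 for replicate 3 against replicates 1 and 2, and 3.17 between those. In MUL1(-/-) it was 10.6 and 8.99, and 5.47 between replicates 1 and 2. These values do not settle whether the numbers pair the libraries. The labels do not say that a number marks a shared culture or day, so the main fit had no block. With counts this low, changes in CGAS and DHX58 could be measured only coarsely, and intervals cover the spread between these libraries.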
